A study of Mus musculus with 3 samples.

Results

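Glycolytic enzymes convert glucose to pyruvate and lactate, and 10 of their genes were followed here in 3 populations of mouse CD8 T cells from tissue labelled MLN: Hk2, Gpi1, Pfkp, Aldoa, Tpi1, Pgk1, Pgam1, Eno1, Pkm and Ldha. They were taken as every probe set whose platform annotation gave the gene's symbol alone, which left 8 of the 10 genes and 18 probe sets, among 18193 named genes on the array. No probe set carried the symbol of Gpi1 or Eno1 alone, so the isomerase and the enolase were not analysed here. The first group, VILLIN-HA/CL4-TCR, and the second, Villin-HA + CL4-TCR, combine the CL4-TCR receptor, with which CD8 T cells recognise influenza hemagglutinin (HA), with HA under the villin promoter, which is active in gut epithelium. The third, CL4-TCR, has the receptor and no Villin-HA in its label. All 3 groups thus share the receptor. The labels give neither the strain, the age, the sex nor the number of mice, do not say what the plus sign in Villin-HA + CL4-TCR stands for, and do not tell which HA group is the activated and which the regulatory CD8 population that the submitters list.

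Glycolysis yields a little ATP per glucose quickly and feeds carbon into nucleotide, serine and lipid synthesis. Resting T cells run it slowly. After antigen recognition, T cells raise glucose uptake and lactate output even with oxygen present, a state called aerobic glycolysis, in which the transcription factors Myc and HIF-1 alpha and the kinase mTOR take part. Most steps can be run by more than one isoform, and Hk2, Pfkp, Pkm and Ldha are isoforms commonly found in dividing cells.

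Each group had 1 array and hence no replicate, so no p-value is given and each difference is one between arrays. Values are MAS5 signals on a linear scale, with each array scaled by the authors to the same trimmed mean. Signals below 31.7, the median of all values and the floor used here, were raised to it, and a gene was called higher or lower where 2 arrays differed by at least 2-fold, a log2 difference of 1. Each gene was represented by its brightest probe set. The only measure of error was the disagreement between probe sets of a gene: the pooled SD of their log2 differences was 0.43 for VILLIN-HA/CL4-TCR against CL4-TCR over 4174 genes, 0.65 for Villin-HA + CL4-TCR against CL4-TCR over 4180 genes, and 0.61 between the HA arrays over 4221 genes. For the 4 enzymes with several probe sets the same SDs were 0.40, 0.34 and 0.43. This SD does not cover differences between mice, sorts or hybridisations. A difference in cell number of a type and one in RNA per cell cannot be told apart in such bulk samples.

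CD8 T cell markers were present on all arrays. Of 10 such genes, all above the floor, none was called between an HA array and CL4-TCR, and 1 was called between the HA arrays, Cd5, with 2774 in VILLIN-HA/CL4-TCR against 1300 in Villin-HA + CL4-TCR cells. By its brightest probe set Cd8a had a signal of 2893 in VILLIN-HA/CL4-TCR, 3149 in Villin-HA + CL4-TCR and 2714 in CL4-TCR cells, and a dimmer one had 203.6, 856.7 and 212.7. The signals of Cd4 were under the floor throughout. Summed signals of myeloid and B cell markers were higher on both HA arrays than in CL4-TCR cells. Those of neutrophil, stromal and erythroid markers were higher only on the Villin-HA + CL4-TCR array. Over 21 skeletal muscle genes the summed signal was 1118 in VILLIN-HA/CL4-TCR, 7859 in Villin-HA + CL4-TCR and 905 in CL4-TCR cells, with 6, 19 and 5 of them above the floor. The defining muscle genes Acta1 and Ckm had 41.6 and 11 in VILLIN-HA/CL4-TCR, 1191 and 555 in Villin-HA + CL4-TCR, and 23.7 and 7.6 in CL4-TCR cells. Over the 7 muscle genes measured in VILLIN-HA/CL4-TCR against CL4-TCR the median log2 difference was -0.09. The muscle list shares Pfkm, Pgam2 and Eno3 with the isoforms of the glycolytic steps. Of these Eno3 had 682.7 in VILLIN-HA/CL4-TCR, 362.5 in Villin-HA + CL4-TCR and 259.8 in CL4-TCR cells. Over 8 neutrophil genes the sums were 129, 1892 and 132 in the same order, and over 7 genes of stroma and endothelium 98.7, 841 and 108. Over 12 myeloid genes the sums were 4915 in VILLIN-HA/CL4-TCR, 4389 in Villin-HA + CL4-TCR and 3288 in CL4-TCR cells, of which Ctss, a protease gene, gave 3299, 3446 and 3001. Of 9 myeloid genes measured in each comparison with CL4-TCR, 4 were higher in VILLIN-HA/CL4-TCR and 5 in Villin-HA + CL4-TCR cells. Among all measured genes 7.43% and 11.9% were higher in these comparisons. The lysozyme gene Lyz2 had 817.3, 312.2 and 84.5, and the macrophage receptor gene Csf1r 384.1, 125.0 and 40.9 by its brightest probe set. Its dimmer probe sets had 127.9, 120.2 and 38.7 in one case and 58.2, 88.5 and 46.3 in the other. Other myeloid genes were highest in Villin-HA + CL4-TCR cells, such as Cd68 with 49.1, 106.3 and 39.5 and Tyrobp with 71.6, 99.2 and 32.3. Between the HA arrays, 5 of 11 measured myeloid genes had the higher signal in VILLIN-HA/CL4-TCR cells. Over 6 B cell genes the sums were 612, 401 and 309. Of these Ms4a1, the CD20 gene, had 147.2, 52.5 and 55.8, and Cd22 had 178.9, 55.6 and 72.7. Cd79b had 199.1, 233.1 and 110.5. It was the only 1 of 4 measured B cell genes with a higher signal in Villin-HA + CL4-TCR than in CL4-TCR cells. The median log2 difference of the 4 was -0.11 there, so the higher sum on that array does not describe the list. Erythroid transcripts were low, with sums of 30.5, 109 and 48.2 over 4 genes. Muscle, myeloid and B cells also use glycolytic enzymes, and the part of such cells in the results was not tested.

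**Figure D1:**
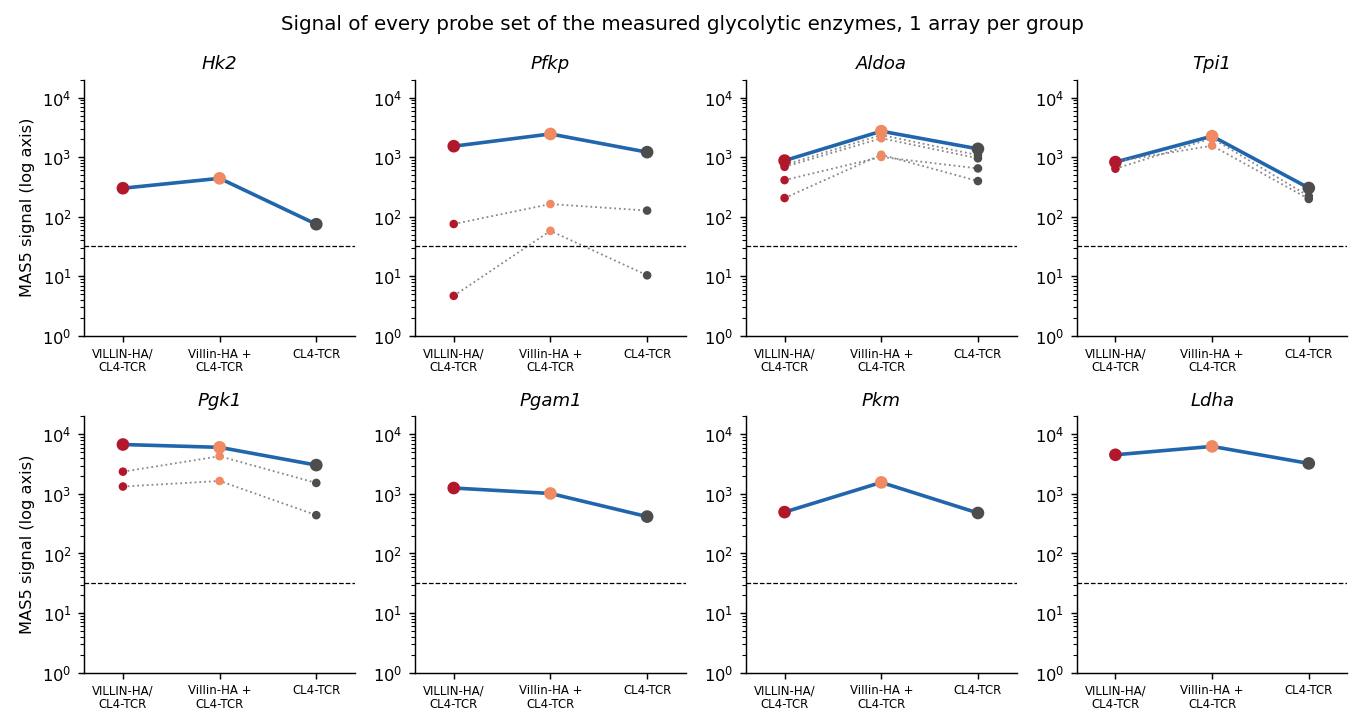
MAS5 signal (log axis) of every probe set of the 8 measured glycolytic enzymes on the 3 arrays, with VILLIN-HA/CL4-TCR, Villin-HA + CL4-TCR and CL4-TCR from left to right. The solid line joins the brightest probe set of a gene, dotted lines its other probe sets, and the dashed line is the floor of 31.7: only 1 of the 18 probe sets, of Pfkp, falls below it on any array.

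To show the start regions of the genes discussed, the RefSeq promoter windows of the enzymes called higher in VILLIN-HA/CL4-TCR cells are given here, with that of Ldha because it alone held CACGTG. Each window runs from 250 bases before to 50 bases after an annotated start, 5′ to 3′ on the gene's strand, in GRCm38.p6. Capitals mark the letters CACGTG, the E-box that Myc binds, and ACGTG or GCGTG, the core of the site that HIF binds, on either strand. CACGTG contains ACGTG, so each CACGTG counts for both.
Hk2, chr6:82774405-82774704, minus strand: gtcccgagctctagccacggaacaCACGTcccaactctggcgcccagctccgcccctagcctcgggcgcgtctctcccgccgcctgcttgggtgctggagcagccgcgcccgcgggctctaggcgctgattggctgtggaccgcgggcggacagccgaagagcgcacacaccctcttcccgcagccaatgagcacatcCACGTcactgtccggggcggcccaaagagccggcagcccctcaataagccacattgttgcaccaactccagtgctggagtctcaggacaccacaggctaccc
Tpi1, chr6:124814109-124814408, minus strand: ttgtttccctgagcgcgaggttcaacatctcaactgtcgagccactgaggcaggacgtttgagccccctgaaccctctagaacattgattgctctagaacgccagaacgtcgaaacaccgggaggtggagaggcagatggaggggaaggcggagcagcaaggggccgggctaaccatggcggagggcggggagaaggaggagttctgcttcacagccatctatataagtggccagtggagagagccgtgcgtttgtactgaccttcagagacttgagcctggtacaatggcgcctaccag
Pgk1, chrX:106186850-106187149, plus strand: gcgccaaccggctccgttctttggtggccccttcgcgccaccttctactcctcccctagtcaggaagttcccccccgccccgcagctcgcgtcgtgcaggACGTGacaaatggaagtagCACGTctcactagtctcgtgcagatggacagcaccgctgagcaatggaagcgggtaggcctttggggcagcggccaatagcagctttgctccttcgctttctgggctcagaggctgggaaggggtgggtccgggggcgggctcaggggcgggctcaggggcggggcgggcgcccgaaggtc
Pgam1, chr19:41911621-41911920, plus strand: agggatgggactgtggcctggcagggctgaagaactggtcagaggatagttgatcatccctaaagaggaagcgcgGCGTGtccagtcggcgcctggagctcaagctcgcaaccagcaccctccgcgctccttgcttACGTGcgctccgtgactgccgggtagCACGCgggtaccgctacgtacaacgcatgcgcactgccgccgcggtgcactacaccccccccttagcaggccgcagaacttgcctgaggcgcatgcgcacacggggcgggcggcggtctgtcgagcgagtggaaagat
Ldha, chr7:46845554-46845853, plus strand: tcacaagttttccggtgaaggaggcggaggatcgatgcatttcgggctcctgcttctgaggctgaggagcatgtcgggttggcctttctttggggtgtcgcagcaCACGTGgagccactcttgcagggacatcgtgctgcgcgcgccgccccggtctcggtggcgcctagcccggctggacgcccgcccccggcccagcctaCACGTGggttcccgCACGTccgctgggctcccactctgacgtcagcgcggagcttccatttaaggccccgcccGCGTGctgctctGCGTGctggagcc

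The Hk2 and Pgk1 windows each held ACGTG at 2 places. The Pgam1 window held 1 ACGTG and 2 GCGTG. The first Ldha window held 2 CACGTG, which are palindromes and give ACGTG on both strands, 1 further ACGTG and 2 GCGTG. None of the 3 motifs was found in the Tpi1 window, although Tpi1 had the largest difference of the enzymes in Villin-HA + CL4-TCR cells. Over all 10 enzymes, which have 16 windows, some of them overlapping, in the RefSeq table, 12 windows held ACGTG or GCGTG, and these belonged to 8 genes. Among the 32851 full-length windows of all mouse genes in the table, 43.8% held ACGTG or GCGTG and 7.15% held CACGTG. These matches describe letters and show no binding.

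The first comparison asks how HA-specific CD8 T cells labelled VILLIN-HA/CL4-TCR differ from those with the receptor alone. Of the 8 measured enzymes, 4 were higher by at least 2-fold in VILLIN-HA/CL4-TCR cells than in CL4-TCR cells and none was lower: Hk2, Tpi1, Pgk1 and Pgam1. Among all 11259 named genes measured in this comparison, 7.43% were higher and 6.63% lower by that rule. The median log2 difference of the 8 enzymes was 0.81, against -0.04 for all measured genes. The enzymes did not differ as a block, since Pkm and Pfkp differed little and Aldoa had a lower signal in VILLIN-HA/CL4-TCR cells, short of 2-fold. On the same array 4 of 9 measured myeloid genes and 2 of 4 B cell genes were higher and none lower, with medians of 0.48 and 1.07. The largest myeloid differences were Lyz2, 9.67-fold, and Csf1r, 9.39-fold by its brightest probe set. The other Csf1r probe sets had log2 differences of 1.72 and 0.33. Ms4a1 was 2.64-fold and Cd22 2.46-fold above CL4-TCR. The part of these genes in the enzyme values was not tested.

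The second comparison sets the other HA array against CL4-TCR. Here 5 of the 8 enzymes were higher by at least 2-fold in Villin-HA + CL4-TCR cells and none was lower: Hk2, Pfkp, Tpi1, Pgam1 and Pkm. Of 12195 named genes measured, 11.9% were higher and 9.53% lower. The other enzymes lay just short of the threshold, with log2 differences of 0.99 for Pgk1, 0.99 for Aldoa and 0.95 for Ldha, and Pfkp just past it at 1.01. The lowest of the 8 was thus 0.95, with a median of 1.15 against 0.06 for all measured genes. All 18 probe sets of the enzymes were brighter in Villin-HA + CL4-TCR than in CL4-TCR cells, 12 of them by at least 2-fold. Both comparisons use the same CL4-TCR array and are not independent of each other.

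The scaling of the Villin-HA + CL4-TCR array bears on the size of these differences. The muscle, neutrophil, stromal and myeloid transcripts of that array also accompany them, and their part was not tested. On this array, 9 probe sets of added control RNA were brighter than on that of CL4-TCR cells by a median log2 difference of 0.42, with a range of 0.29 to 0.63, whereas the VILLIN-HA/CL4-TCR array differed by -0.04. Scaling every array to that control RNA, a choice made after seeing the data, left 3 of the 8 enzymes called, Hk2, Tpi1 and Pkm. At that scaling 6.78% of all measured genes were higher and 20.3% lower. The median of the 8 was 0.73, while the median of all genes was shifted by -0.39 and was then -0.33. Higher genes made up 55.6% of all calls in this comparison as deposited, 55.5% with quantile normalization, 38.1% with arrays scaled to the same median and 25.0% with arrays scaled to the control RNA.

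**Figure D2:**
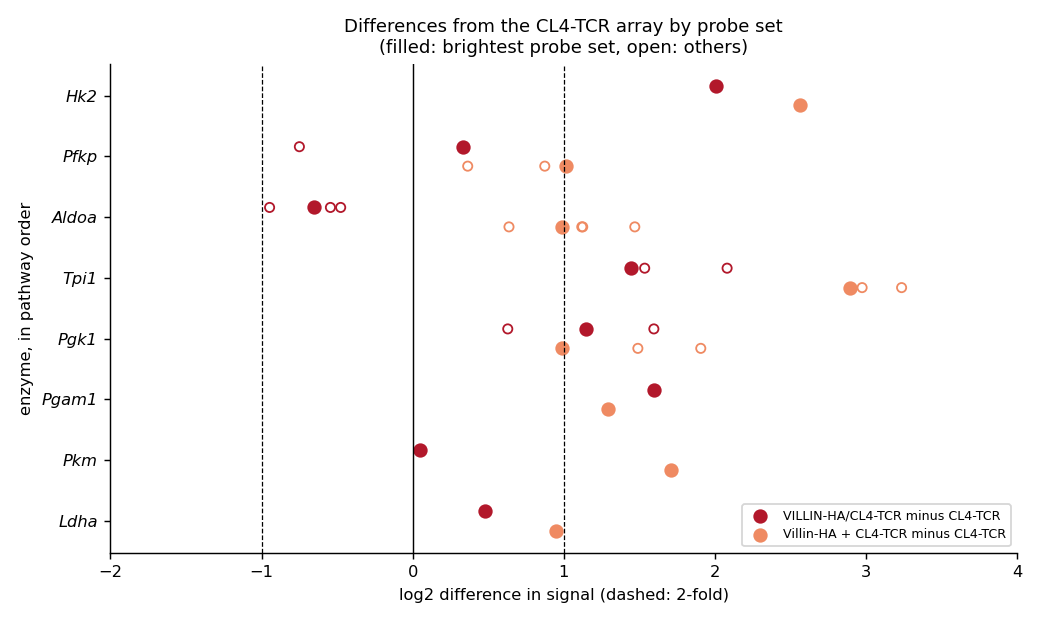
Log2 difference in signal from the CL4-TCR array for each enzyme in pathway order, with VILLIN-HA/CL4-TCR above Villin-HA + CL4-TCR within each row. Filled points are the brightest probe sets and open points the others of the gene, and dashed lines mark 2-fold: all 5 Aldoa probe sets lie left of 0 for VILLIN-HA/CL4-TCR and right of 0 for Villin-HA + CL4-TCR.

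At the entry of the pathway, Hk2, a hexokinase that traps glucose in the cell as glucose phosphate, had signals of 301.7 in VILLIN-HA/CL4-TCR cells and 442.3 in Villin-HA + CL4-TCR cells, against 75.0 in CL4-TCR cells. It was 4.02-fold and 5.90-fold higher on the HA arrays, the largest difference of the 8 enzymes in the first comparison. Hk2 was represented by 1 probe set, so its probe error is unknown. Among the other hexokinase genes, Hk1, the broadly expressed isoform, differed little, at 1152 in VILLIN-HA/CL4-TCR, 847 in Villin-HA + CL4-TCR and 1064 in CL4-TCR cells. Hk3 was dim, at 38.5, 75.7 and 57.3 in the same order, and its other probe set had a log2 difference of -1.02 rather than 0.40 in the second comparison. Adpgk, a glucokinase that uses ADP, was 3.48-fold lower in Villin-HA + CL4-TCR cells, with signals of 47.7 against 165.9, and its other probe set had the same log2 difference of -1.80. Between the HA arrays Adpgk was 2.90-fold higher in VILLIN-HA/CL4-TCR cells.

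Pfkp, the platelet-type phosphofructokinase that commits sugar to glycolysis, had signals of 1532 in VILLIN-HA/CL4-TCR, 2458 in Villin-HA + CL4-TCR and 1217 in CL4-TCR cells. Its log2 difference was 0.33 in the first and 1.01 in the second comparison. A dimmer Pfkp probe set went the other way in the first, with 75.6 against 127.1 in CL4-TCR cells, a log2 difference of -0.75, so the direction there is uncertain. The liver and muscle isoforms, Pfkl and Pfkm, were not called against CL4-TCR. Pfkl had 249 in VILLIN-HA/CL4-TCR, 482 in Villin-HA + CL4-TCR and 393 in CL4-TCR cells, and Pfkm had 79.3, 229.3 and 146.9. Between the HA arrays Pfkm was 2.89-fold lower in VILLIN-HA/CL4-TCR cells, and Pfkl was not called by its brightest probe set.

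Aldoa, the aldolase that splits the sugar bisphosphate, is the main isoform of muscle. By the brightest probe sets, Aldoa alone of the 8 enzymes had a lower signal in VILLIN-HA/CL4-TCR than in CL4-TCR cells. Its brightest probe set had signals of 878 in VILLIN-HA/CL4-TCR, 2738 in Villin-HA + CL4-TCR and 1383 in CL4-TCR cells. Against CL4-TCR, its 5 probe sets had log2 differences from -0.95 to -0.48 in VILLIN-HA/CL4-TCR cells and from 0.64 to 1.47 in Villin-HA + CL4-TCR cells. The directions thus held in every Aldoa probe set, although 2-fold was reached in neither comparison by the brightest one. The brightest probe sets of Pfkl and Pfkm and the dimmer Pfkp probe set described above had the same signs. All 5 Aldoa probe sets end in _x_at, a type that can also bind related transcripts. The brain isoform Aldoc, dim on the other arrays, had a signal of 205.7 in Villin-HA + CL4-TCR cells against 18.6 in CL4-TCR cells, at least 6.49-fold higher, and its other probe set lay below the floor on all 3 arrays. Aldoc was also lower in VILLIN-HA/CL4-TCR than in Villin-HA + CL4-TCR cells, at a log2 difference of -2.22.

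Tpi1, the triose phosphate isomerase that makes both products of aldolase usable, had signals of 829 in VILLIN-HA/CL4-TCR, 2259 in Villin-HA + CL4-TCR and 304 in CL4-TCR cells. The ratio to CL4-TCR was 2.72 and 7.42 on the HA arrays. Its 3 probe sets agreed in the second comparison, with log2 differences from 2.89 to 3.23, and ranged from 1.45 to 2.08 in the first. No probe set of Tpi1 fell short of 2-fold on either HA array.

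The next step belongs to Gapdh, glyceraldehyde phosphate dehydrogenase, followed here through control probe sets along its transcript. At the 3′ end its signals were 4212 in VILLIN-HA/CL4-TCR, 8787 in Villin-HA + CL4-TCR and 3401 in CL4-TCR cells. At the 5′ end they were 91.2, 2621 and 184.8. The signal of the 3′ over the 5′ end of Gapdh was therefore 46.2, 3.35 and 18.4. By the 3′ probe set, Gapdh had log2 differences of 0.31 in the first and 1.37 in the second comparison, and by the 5′ probe set -1.02 and 3.83. The middle probe set had -0.56 and 2.75, so it and the 5′ probe set had the same signs as Aldoa. For Actb, the actin transcript measured the same way, the 3′ over 5′ ratios were 2.46, 1.80 and 1.98. They differed far less between the arrays than those of Gapdh, and what sets the Gapdh ratios apart was not tested. Gapdhs, the form of sperm, had signals of 2.1, 50.2 and 14.5 and was not called. How far the end ratio enters the values of the 8 enzymes was not tested, since probe positions were not used here.

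**Figure D3:**
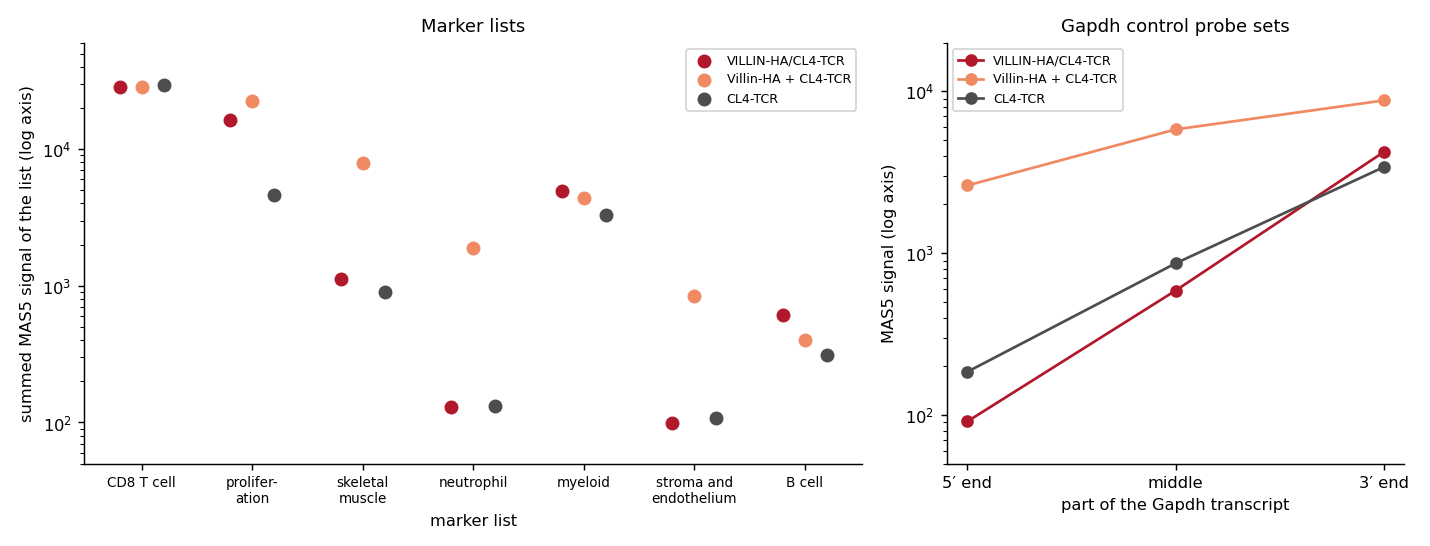
Left, summed MAS5 signal (log axis) of 7 marker lists on the 3 arrays: muscle, neutrophil and stromal sums are highest in Villin-HA + CL4-TCR cells, and CD8 T cell sums lie close together. Right, Gapdh control signal (log axis) at the 5′ end, middle and 3′ end of the transcript: the Villin-HA + CL4-TCR array loses least toward the 5′ end.

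Pgk1, the phosphoglycerate kinase that makes the first ATP of the pathway, had signals of 6755 in VILLIN-HA/CL4-TCR, 6057 in Villin-HA + CL4-TCR and 3048 in CL4-TCR cells. The HA arrays were 2.22-fold and 1.99-fold above CL4-TCR. All 3 probe sets were brighter on both HA arrays, with log2 differences from 0.63 to 1.60 in the first and from 0.99 to 1.91 in the second comparison. The promoter window places Pgk1 on the X chromosome, and the arrays differed in Xist, the RNA of the inactive X chromosome of female cells, with signals of 2.5 in VILLIN-HA/CL4-TCR, 1339 in Villin-HA + CL4-TCR and 5443 in CL4-TCR cells. The Y-linked genes Eif2s3y and Kdm5d had 1496 and 402 in VILLIN-HA/CL4-TCR, 746.9 and 135.9 in Villin-HA + CL4-TCR, and 13.4 and 0.8 in CL4-TCR cells. The arrays thus differed in transcripts of male and female cells in all 3 comparisons. With 1 array a group, sex and group cannot be told apart for any of the enzymes.

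Pgam1, the phosphoglycerate mutase that shifts the phosphate group for the enolase step, had signals of 1256 in VILLIN-HA/CL4-TCR, 1018 in Villin-HA + CL4-TCR and 416 in CL4-TCR cells. It was 3.02-fold and 2.45-fold higher on the HA arrays by its 1 probe set. Its muscle isoform Pgam2 lay below the floor on all 3 arrays, at 2.5, 13.3 and 4.6. Of the enolases, Eno2, the neuronal form, lay below the floor on each. Eno3, the form known from muscle, had 683 in VILLIN-HA/CL4-TCR, 363 in Villin-HA + CL4-TCR and 260 in CL4-TCR cells, and was 2.63-fold higher in the first and 1.40-fold higher in the second comparison.

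At the end of the pathway, Pkm, the pyruvate kinase that makes the last ATP, differed between the HA arrays. It had signals of 495 in VILLIN-HA/CL4-TCR, 1561 in Villin-HA + CL4-TCR and 478 in CL4-TCR cells. Cells labelled VILLIN-HA/CL4-TCR were 1.04-fold higher than CL4-TCR cells, and the Villin-HA + CL4-TCR array was 3.26-fold higher than CL4-TCR. Pkm had 1 probe set, which cannot separate its splice forms here. Pklr, the isoform of liver and red cells, was near the floor at 35.0, 47.7 and 21.5.

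Ldha, the lactate dehydrogenase chain that turns pyruvate into lactate and so regenerates NAD+, had signals of 4539 in VILLIN-HA/CL4-TCR, 6279 in Villin-HA + CL4-TCR and 3251 in CL4-TCR cells. Its log2 differences of 0.48 and 0.95 stayed under 2-fold on both HA arrays. Ldhb, the chain typical of heart, had 169, 264 and 166 by its brightest probe set, and its 4 probe sets had log2 differences from 0.02 to 1.01 in the first comparison and from 0.05 to 0.67 in the second. Ldhd, which acts on the mirror form of lactate, had 26.4, 44.7 and 5.6 and was not called. Bpgm, a mutase of red cells, had 193.0, 238.5 and 187.8 and was not called by its brightest probe set.

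**Figure D4:**
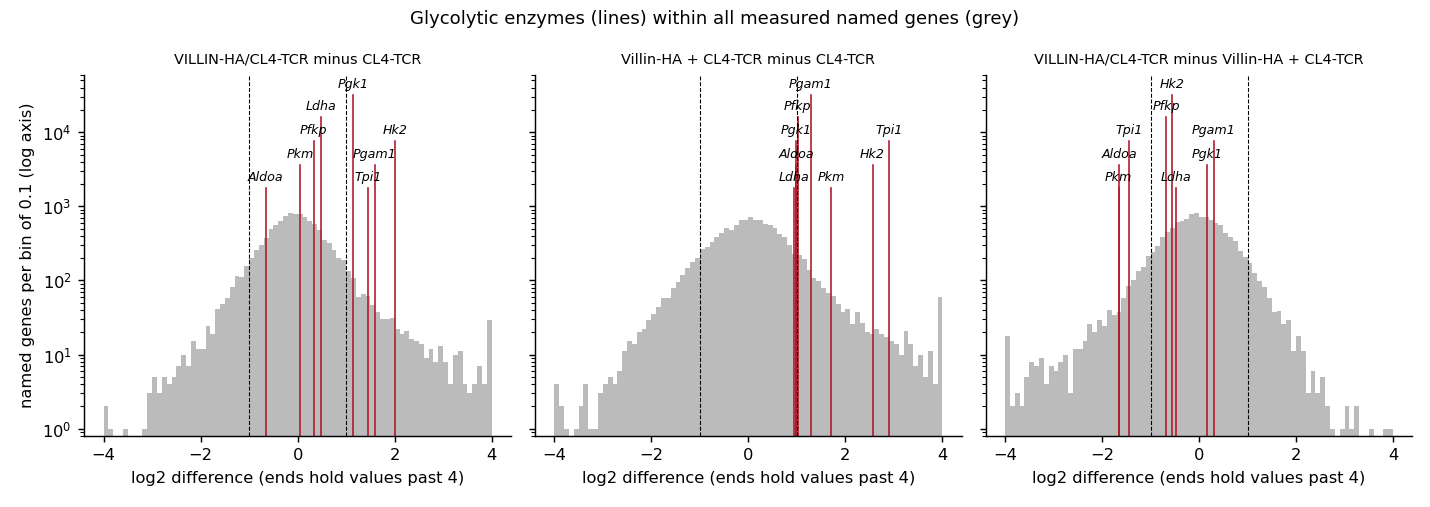
Histograms of the log2 differences of all measured named genes (grey, log axis) in the 3 comparisons, with red lines at the 8 enzymes and dashed lines at 2-fold. The enzymes lie from -0.66 to 2.01 in the first panel, from 0.95 to 2.89 in the second and from -1.66 to 0.30 in the third.

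The third comparison sets the HA arrays against each other. Of the 8 enzymes, 3 were lower by at least 2-fold in VILLIN-HA/CL4-TCR than in Villin-HA + CL4-TCR cells and none was higher: Aldoa, Tpi1 and Pkm. Among 12080 named genes measured, 8.94% were lower and 6.13% higher. Aldoa had a log2 difference of -1.64, with its 5 probe sets from -2.42 to -1.29, Tpi1 -1.45 with a range of -1.70 to -0.89 over 3, and Pkm -1.66 by 1 probe set. Hk2 had -0.55, Pfkp -0.68 and Ldha -0.47, none of them past 2-fold. The median of the 8 was -0.62, against -0.06 for all measured genes.

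Pgk1 and Pgam1 were the 2 enzymes with slightly higher signals in VILLIN-HA/CL4-TCR cells, at log2 differences of 0.16 and 0.30. For Pgk1 the other probe sets had -0.31 and -0.86, so its direction is not settled. The lower signals in VILLIN-HA/CL4-TCR cells accompany the muscle, neutrophil and stromal transcripts and the smaller Gapdh end ratio of the Villin-HA + CL4-TCR array. Myeloid genes were mixed between these arrays. Of 11 measured, 3 passed 2-fold upward, Lyz2, Csf1r and C1qb, and 2 downward, Cd68 and Fcgr3, with a median of -0.06. The other Csf1r probe sets had 0.09 and -0.60. Of 4 measured B cell genes, 2 passed 2-fold upward, Ms4a1 and Cd22, while Cd79b had -0.23, and the median was 1.10. The part of these transcripts and of the end ratio was not tested. With arrays scaled to the added control RNA the median of the 8 was -0.15, that of all genes 0.38, and Aldoa and Pkm remained past 2-fold, while Tpi1 had -0.98. At that scaling 4.03% of all measured genes were lower and 17.8% higher. Higher genes made up 40.7% of all calls here as deposited, 67.3% with arrays scaled to the same median, 45.7% with quantile normalization and 81.5% with arrays scaled to the control RNA.

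Over 9 lists of isoforms, regulators, transporters and connected pathways, 7 of 86 measured genes were higher in VILLIN-HA/CL4-TCR than in CL4-TCR cells and 1 was lower, beside 7.43% and 6.63% of all genes. In Villin-HA + CL4-TCR cells 13 of 97 were higher and 4 lower, beside 11.9% and 9.53%. Between the HA arrays 5 of 97 were higher and 10 lower, beside 6.13% and 8.94%. The counts of higher genes in these wider lists are close to what the background shares give.

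Of 14 measured regulators, 1 was called in the first comparison, Pfkfb2, and 2 in the second, Hif1a higher and Foxk1 lower. Hif1a, which encodes the oxygen-sensitive factor HIF-1 alpha, had signals of 2978 in VILLIN-HA/CL4-TCR, 5055 in Villin-HA + CL4-TCR and 1726 in CL4-TCR cells. Its log2 difference was 0.79 in the first and 1.55 in the second comparison, and all 4 of its probe sets were brighter on both HA arrays. Myc, whose product drives many metabolic genes in activated T cells, was not called, at 695 in VILLIN-HA/CL4-TCR, 458 in Villin-HA + CL4-TCR and 502 in CL4-TCR cells. Mtor, which encodes the growth-sensing kinase, was not called either, at 458, 338 and 555 or log2 differences of -0.28 and -0.72. Mycn, a relative of Myc, had 27.2, 64.5 and 52.0 and was at least 2.03-fold lower in VILLIN-HA/CL4-TCR than in Villin-HA + CL4-TCR cells, while another of its probe sets had 50.3, 62.1 and 5.9, which is not called there and has the opposite sign in the first comparison. Foxk1, a transcription factor gene, was 2.48-fold lower in Villin-HA + CL4-TCR cells by its brightest probe set and had 0.74 on the log2 scale by another.

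Pfkfb2, a gene of the enzyme that sets the level of the activator of phosphofructokinase, was at least 2.50-fold higher in VILLIN-HA/CL4-TCR cells, with a signal of 79.1 against 25.4, and its other 3 probe sets lay below the floor. Of 14 measured hypoxia-induced genes outside glycolysis, Bnip3, a gene of mitochondrial turnover, was 2.73-fold and 4.30-fold higher on the HA arrays, with signals of 164.5 in VILLIN-HA/CL4-TCR, 258.6 in Villin-HA + CL4-TCR and 60.2 in CL4-TCR cells. Ankrd37 was 2.10-fold higher in the second comparison and 1.26-fold higher in the first. Ndrg1 was 2.70-fold and 1.18-fold higher in the first and second, and its probe sets disagreed in direction in the second. Ddit4, an inhibitor of mTOR, was 2.01-fold lower in the second and had a log2 difference of 0.02 in the first. Higd1a and Kdm3a, the brightest that were not called, had log2 differences of 0.78 and -0.28 in the first and 0.92 and -0.78 in the second comparison. Vegfa, a classic HIF target, lay below the floor on all arrays.

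Of the glucose, pyruvate and lactate transporters, none of 5 measured was called in the first comparison, 3 of 8 were higher in the second, and 4 of 8 were lower in the third. Of all measured genes 7.43% were higher and 6.63% lower in the first, 11.9% were higher in the second and 8.94% lower in the third. Slc2a1, the GLUT1 of activated T cells, had signals of 351 in VILLIN-HA/CL4-TCR, 795 in Villin-HA + CL4-TCR and 509 in CL4-TCR cells. Its 3 probe sets had log2 differences from -0.75 to -0.54 in the first and from 0.60 to 0.88 in the second comparison, and the HA arrays differed by -1.18 by the brightest, the same signs as for Aldoa. Slc2a3, the carrier GLUT3, had 1378, 1147 and 1359 in the same order. Mpc1, a subunit of the mitochondrial pyruvate carrier, had 421, 453 and 380. Slc16a3, a carrier that exports lactate, was at least 2.61-fold higher in Villin-HA + CL4-TCR cells, with 82.8 against 11. Bsg, the chaperone that brings lactate carriers to the membrane, was 2.67-fold higher there, with 171.4 against 64.1. Slc2a8, a glucose carrier of internal membranes, was at least 2.69-fold higher.

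Downstream of pyruvate, Pdk1, a kinase that shuts pyruvate dehydrogenase and so holds pyruvate back from mitochondria, was lower on both HA arrays. It had signals of 262.8 in VILLIN-HA/CL4-TCR, 200.9 in Villin-HA + CL4-TCR and 581.2 in CL4-TCR cells, 2.21-fold and 2.89-fold lower. All 4 Pdk1 probe sets were lower on both, by log2 differences from -1.39 to -0.71 and from -1.53 to -0.79. Pdk3, another kinase of the enzyme, was 2.51-fold higher in VILLIN-HA/CL4-TCR cells and had a log2 difference of 0.83 in Villin-HA + CL4-TCR cells. The enzyme's own chains Pdha1 and Pdhb differed by at most 0.25 from CL4-TCR on the log2 scale by their brightest probe sets. Of 15 measured genes of the tricarboxylic acid cycle 1 was called, Idh3a, 2.42-fold higher in Villin-HA + CL4-TCR cells, and its other probe sets stayed under 2-fold. Mdh2 and Sucla2, the brightest of the others, differed from CL4-TCR by 0.41 and 0.27 in the first and 0.48 and 0.12 in the second comparison.

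**Figure D5:**
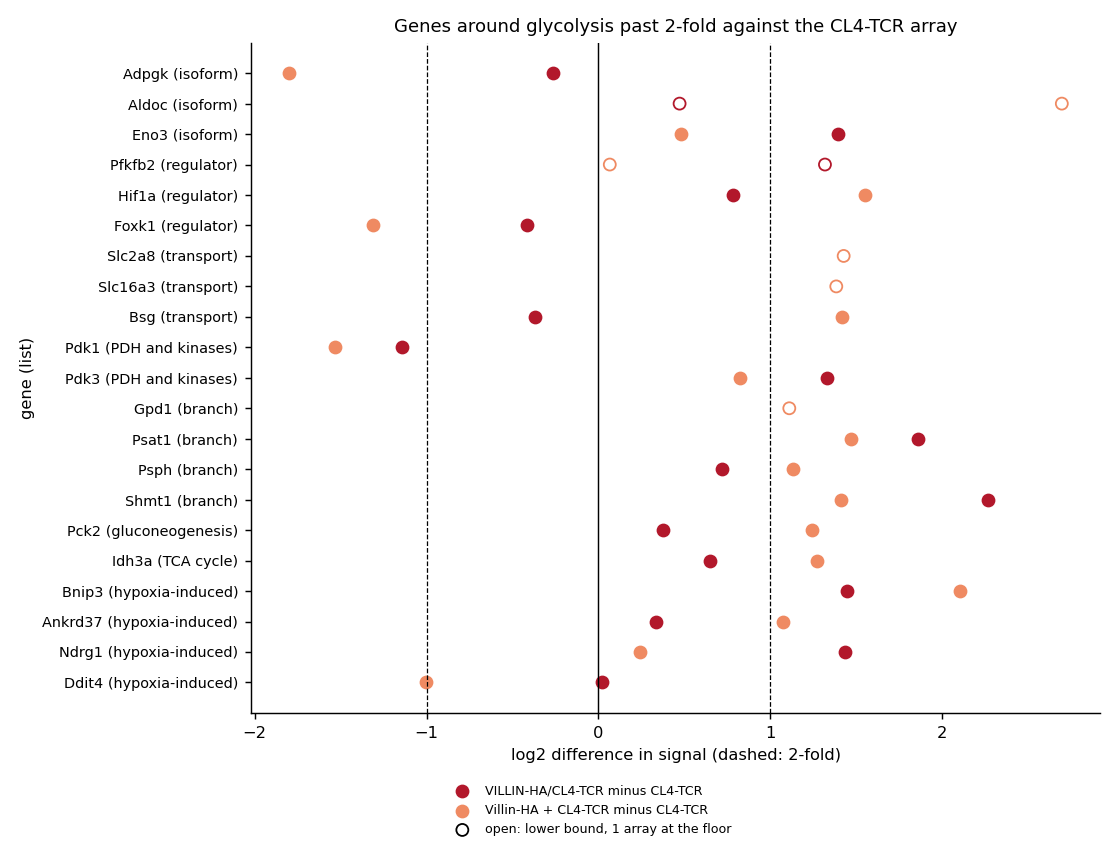
Log2 difference in signal from the CL4-TCR array for the genes around glycolysis that passed 2-fold (dashed lines) on either HA array, grouped by list. Filled points are measured on both arrays and open points are lower bounds: Shmt1 and Psat1 lie right of 1 on both HA arrays and Pdk1 left of -1 on both.

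Of the genes at routes that leave glycolysis, 2 of 12 measured were higher in VILLIN-HA/CL4-TCR and 4 of 14 in Villin-HA + CL4-TCR cells than in CL4-TCR cells, and none was lower. Among all measured genes 7.43% and 11.9% were higher, and 6.63% and 9.53% lower. Psat1, an enzyme of serine synthesis, had signals of 1426 in VILLIN-HA/CL4-TCR, 1090 in Villin-HA + CL4-TCR and 393 in CL4-TCR cells, 3.63-fold and 2.78-fold higher, with a second probe set at log2 differences of 1.75 and 2.09. Shmt1, which passes a carbon from serine to folate, had 425.7, 235.4 and 88.4 in the same order. It was 4.82-fold and 2.66-fold higher, and its dimmer probe sets had 333.2, 178.1 and 117.6 in one case and 337.7, 138.0 and 75.9 in the other. Psph, the last enzyme of serine synthesis, was 2.19-fold higher in Villin-HA + CL4-TCR cells and had a log2 difference of 0.72 in VILLIN-HA/CL4-TCR cells. Phgdh, the first enzyme of that route, was not called by its brightest probe set, with 0.19 and 0.26, while its 3 other probe sets had 1.00 to 1.73 in the second comparison. Shmt2, the mitochondrial partner of Shmt1, was 2.03-fold higher in VILLIN-HA/CL4-TCR than in Villin-HA + CL4-TCR cells, with 1667 against 821, and other probe sets of it disagreed. At the glycerol branch, Gpd1, the cytosolic glycerol phosphate dehydrogenase, was at least 2.16-fold higher in Villin-HA + CL4-TCR than in CL4-TCR cells, with 68.5 against 22.2. No other Gpd1 probe set reached 2-fold, and Gpd2, the mitochondrial form, was not called. Gfpt2, an enzyme of hexosamine synthesis, was at least 2.53-fold lower in VILLIN-HA/CL4-TCR than in Villin-HA + CL4-TCR cells, with 21.4 against 80.2. None of 6 measured pentose phosphate genes was called by its brightest probe set, and Tkt, the transketolase, had log2 differences of 0.45 and 0.78, and Pgd, an oxidative enzyme of the route, 0.44 and 0.13, with a dimmer Pgd probe set at -0.27 and 1.07. Among gluconeogenic genes Pck2, which leads mitochondrial carbon back up the pathway, was 2.37-fold higher in Villin-HA + CL4-TCR cells, with 135.1 against 57.0. G6pc3, a glucose phosphatase, was at least 2.30-fold lower in VILLIN-HA/CL4-TCR than in Villin-HA + CL4-TCR cells, and Fbp1 and Pck1 were near the floor on all arrays.

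Proliferation markers were higher along with the enzymes. Of 11 measured genes of dividing cells, 8 were higher in VILLIN-HA/CL4-TCR and 10 in Villin-HA + CL4-TCR cells than in CL4-TCR cells, and none was lower, with medians of 2.75 and 4.04 on the log2 scale. Among all measured genes 7.43% and 11.9% were higher, and 6.63% and 9.53% lower, in the same order. Of 8 measured housekeeping genes, none was called in the first comparison and 1 was lower in the second, and their medians were 0.03 and 0.29. The part of cell division in the enzyme values was not tested.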

How the data were processed

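Each group gave 1 array, for which 6 µg of total RNA were turned into biotin-labelled cRNA, per the labels' protocols. The deposited values are linear MAS5 intensity values per probe set, per the submitters' processing notes, which name no version; the genome build is not given in the sources used here. The authors scaled each array, and the trimmed mean without the lowest and highest 2% is 150 on all 3. Detection calls were not used here.

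The table holds 45101 probe sets, of which 34958 have 1 gene symbol, 932 several and 9211 none in the platform annotation. Symbols were updated by Entrez identifier to the RefSeq table of GRCm38.p6, and 13 control probe sets of named genes were not used to represent a gene. The brightest probe set over the 3 arrays stood for a gene. Signals were raised to the floor of 31.7, the median of all values. Genes were measured in a comparison if the higher value lay above it, and a fold against a floored value is a lower bound, written as at least that fold. Calls need 2-fold. The functions were tested on simulated data. Python 3.11.15, numpy 2.4.6 and pandas 2.3.3 were used.

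The enzymes and gene lists were chosen with earlier results of these data known. The text names all 10 enzymes, each isoform above the floor on any array, each other pathway gene past 2-fold in a comparison, the 2 brightest of each list that were not, and the 5 genes nearest to the enzymes' median. Eno2, Pgam2 and Vegfa, below the floor, and the marker genes named singly were chosen after their values were seen. Alternatives were the floor, log2(signal + 16), median and quantile scaling, the mean over probe sets, leaving out probe sets that can bind related transcripts, 1.5-fold, and, added after seeing the data, scaling to added control RNA. The number of arrays limits the precision. Genome positions of probes were not used.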

Additional observations from a re-analysis of the deposited data

How the results depend on the processing

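No paired analysis was possible because each group has 1 array. The enzyme medians kept their sign under 7 alternatives (the floor, log2(signal + 16), same-median, quantile and control-RNA scaling, the mean over probe sets, and leaving out probe sets ending _x_at, _s_at or _a_at): 0.48 to 0.87 in the first comparison, 0.73 to 1.60 in the second and -0.77 to -0.15 in the third, between the HA arrays. Of the single enzymes' values, 153 moved by less than the probe set SD and 3 by more. Some of the 153 could not move, or not past the SD, so this count is no test of stability. The raised floor left every enzyme's value unchanged, and the mean over probe sets cannot change the 4 enzymes with 1 probe set. Scaling to the same median or to the control RNA moved all enzymes equally within a comparison, by less than the SD. Hk2, Pfkp and Pkm kept the same probe set when those ending _x_at, _s_at or _a_at were left out. The 153 also hold a change of sign, Pgk1 in the third comparison, from 0.16 to -0.34 with the mean over probe sets. Of the 3, Pfkp was -0.14 in the first comparison with the mean over probe sets. Pgk1 was 0.63 in the first and -0.86 in the third without the probe sets named above. Leaving those out kept only Hk2, Pfkp, Pgk1 and Pkm, of which 1 was higher in the first comparison, 4 in the second, and 1 lower in the third. Of all genes measured at that setting 7.04% were higher in the first, 11.8% higher in the second and 9.19% lower in the third. At 1.5-fold, 8 enzymes were higher in the second comparison, where 23.6% of all measured genes were, and 1 was lower in the first, where 17.3% were. Scaled to the control RNA, which was added after seeing the data, 3 were higher in the second, where 6.78% of all measured genes were.

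Counts of the other pathway genes depended more on the settings. At 1.5-fold, 17 of 86 were higher and 10 lower in the first comparison, beside 16.4% and 17.3% of all measured genes. In the second 33 of 97 were higher and 8 lower, beside 23.6% and 20.5%. In the third 13 of 97 were higher and 29 lower, beside 16.4% and 20.8%. With control-RNA scaling, 6 of 96 were higher and 8 lower in the second, beside 6.78% and 20.3%, and 13 of 96 were higher and 6 lower in the third, beside 17.8% and 4.03%. In the third, 9 of 96 were higher with same-median scaling, beside 11.5% of all genes, and 3 of 96 with quantile normalization, beside 6.72%. With the mean over probe sets 2 of 97 were higher there, beside 2.81%. With the floor at the 65th percentile 4 of 82 were lower, beside 6.98%. Lower genes in the first numbered 2 of 86 with log2(signal + 16), beside 7.19%. Without probe sets ending _x_at, _s_at or _a_at they numbered 2 of 67, beside 7.09%, and 8 of 74 were higher in the second, beside 11.8%. The median of all genes shifted by -0.19 in the second and 0.25 in the third comparison with same-median scaling, and by -0.39 and 0.44 with control-RNA scaling. For signals near the floor a difference is a bound. Differences between mice could not be estimated.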

Other observations

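Among 9013 named genes above the floor on all 3 arrays, other than the enzymes, the 5 whose pair of log2 differences from CL4-TCR lay nearest to the enzymes' median pair of 0.81 and 1.15 were Lyrm4, Stt3a, Ssr1, Slc43a3 and Gstz1. Lyrm4, which takes part in iron-sulfur cluster assembly, had signals of 128.8 in VILLIN-HA/CL4-TCR, 163.7 in Villin-HA + CL4-TCR and 73.3 in CL4-TCR cells. Stt3a, a catalytic subunit of the oligosaccharyltransferase that adds sugars to proteins, had 2144, 2689 and 1212. Ssr1, a subunit of the translocon-associated complex of the endoplasmic reticulum, had 1195, 1497 and 681. Slc43a3, a purine transporter, had 126.9, 155.9 and 71.5, and Gstz1, an enzyme of tyrosine breakdown, had 64.0, 83.4 and 36.6. The likeness is the Euclidean distance over these 2 differences, which share the CL4-TCR array.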
